A study of Mus musculus with 10 samples.

Results

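The genes examined here encode histone acetyltransferases, the enzymes that place acetyl groups on lysines of histones and of other proteins. The members were the 10 listed genes Kat2a, Kat2b, Kat5, Kat6a, Kat6b, Kat7, Kat8, Ep300, Crebbp and Hat1, out of 35501 genes to which the deposited transcripts could be summed. They were found by gene symbol in all 10 libraries; the rule itself uses no measured value, but it was set with earlier results of these data known. The samples were single mouse oocytes at metaphase II, where meiosis pauses until a sperm enters. They had been collected from ICR mice aged 6 to 8 weeks as germinal vesicle oocytes and matured in vitro for 16 h at 37 °C under 5% CO2. In the 5 control libraries the labels name no agent, and in the 5 treated libraries TubA was present at 0.1 µg/mL throughout those 16 h. TubA usually stands for tubastatin A, which blocks HDAC6, a deacetylase of tubulin, but this full name is not in the labels. The comparison asks whether transcripts of these enzymes differ when oocytes mature with the agent.

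Acetylation of histone tails loosens chromatin and marks active genes, and acetyltransferases and deacetylases set its level together. Mammalian enzymes fall into families: GCN5 and PCAF (Kat2a, Kat2b), which work in the SAGA and ATAC complexes; the MYST family (Kat5, Kat6a, Kat6b, Kat7, Kat8), whose members work in multi-subunit complexes; p300 and CBP (Ep300, Crebbp), large coactivators recruited by many transcription factors; and Hat1, which acetylates newly made histone H4 before it is laid down. Full-grown oocytes are nearly silent in transcription, and histones are deacetylated when meiosis resumes, so the messages measured at metaphase II are mostly stored ones.

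Values are in TPM, an abundance per transcript length with a fixed total in each library. Genes can therefore be compared within a library by listed TPM, but sequencing depth is unknown and counting error cannot be calculated. The amplification copied polyadenylated RNA, and sums over transcript models that share bases can count a shared stretch as separate molecules. An order by TPM may thus differ from an order by number of molecules, which p-values over libraries do not measure. Every library is 1 cell by its label, with no animal or culture named. The n given is thus a number of libraries, and the p-values reflect library-to-library spread alone, part of which may be technical. Clustering of the libraries on their own values, with the number of sets fixed at 2, gave sets that cross the treatment. Set A held control replicates 1 to 3 and TubA replicates 1 and 2, and set B the other libraries. All 12 oocyte markers passed the filter on low values, and 11 were above 0 in every library, while Figla, a transcription factor of the oocyte, was listed at 0 in control replicate 1. Gdf9, a growth factor of the oocyte, averaged 5587 ± 812 TPM in controls and 6343 ± 845 TPM in treated cells (mean ± SD, n = 5, control first, here and below). Mos, the kinase of the metaphase II arrest, averaged 309.6 ± 38.9 and 352 ± 71.2 TPM. The zona pellucida genes varied far more between libraries: Zp1 ranged from 104.8 to 3088 TPM, Zp2 from 93.1 to 4518 TPM and Zp3 from 406 to 8123 TPM, each lowest in control replicate 1 and highest in TubA replicate 4. The 9 markers of cumulus and granulosa cells had a sum of 8.30 to 14.3 TPM in controls and 9.81 to 19.1 TPM in treated cells. Most of that was Cyp19a1, at 6.59 to 18.0 TPM in all 10 libraries, while Foxl2 and Amh were listed at 0. The 5 markers of theca and stroma summed to 2.31 to 17.1 and 1.71 to 12.9 TPM, mostly Dcn (1.52 to 15.6 TPM). The 6 markers of blood, immune and endothelial cells summed to 25.8 to 73.1 and 34.7 to 77.1 TPM. Pecam1 stood at 17.5 to 45.1 TPM and C1qb at 2.91 to 54.3 TPM, while Ptprc reached at most 0.174 TPM and Cdh5 0.0694 TPM. The part of these markers in the results below was not tested.

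For 3 members the annotation separates transcripts by a short stretch of coding sequence, shown here because the abundances below are split by it. Letters are those of GENCODE M21 transcripts on GRCm38, 5′ to 3′, all within coding sequence. In Kat7 the capitals mark an exon of 90 bases (chr11:95291520-95291609, minus strand) that transcript Kat7-202 holds and Kat7-201 leaves out.
Kat7-202: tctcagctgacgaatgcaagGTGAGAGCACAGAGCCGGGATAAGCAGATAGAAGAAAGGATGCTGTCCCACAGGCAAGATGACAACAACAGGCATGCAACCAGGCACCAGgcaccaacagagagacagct
Kat7-201: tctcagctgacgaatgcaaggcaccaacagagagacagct
In Kat2a the capitals mark 3 bases (chr11:100708983-100708985, minus strand) at the start of an exon that Kat2a-202 holds and Kat2a-201 leaves out.
Kat2a-202: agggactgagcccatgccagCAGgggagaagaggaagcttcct
Kat2a-201: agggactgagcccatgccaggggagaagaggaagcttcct
In Kat8 the capitals mark the last 20 bases of 2 different first exons (chr7:127912516-127912742 for Kat8-201 and chr7:127914155-127914482 for Kat8-202, plus strand), each joined to the same second exon.
Kat8-201: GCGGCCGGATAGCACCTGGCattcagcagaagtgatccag
Kat8-202: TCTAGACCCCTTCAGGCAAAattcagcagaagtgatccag

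Hat1 was the most abundant of the acetyltransferase genes and Kat2b was close to absent. By mean log2(TPM + 1) over the 10 libraries the order was Hat1, Crebbp, Kat7, Kat6b, Ep300, Kat2a, Kat5, Kat8, Kat6a and Kat2b. Mean levels ran from 166.7 TPM for Hat1 to 0.267 TPM for Kat2b. Hat1 lay above 91.3% of the 11664 genes tested, Crebbp above 80.9%, Kat7 above 78.9% and Kat6b above 75.9%, and the members from Ep300 to Kat6a between 40.8% and 60.1%. Neighbours in this order were compared within each library by an exact two-sided sign-flip permutation test over the 10 libraries, adjusted over the 9 pairs. Of the 9 pairs 3 differed: Hat1 stood above Crebbp, Kat6b above Ep300 and Kat6a above Kat2b, each in 10 of 10 libraries (exact permutation p = 0.0020, the smallest that 10 libraries can give, and adjusted p = 0.0059). The mean difference was 1.39 ± 0.222 log2 units for Hat1 over Crebbp, 1.18 ± 0.522 for Kat6b over Ep300 and 2.73 ± 0.707 for Kat6a over Kat2b (SD over libraries). Crebbp did not differ from Kat7, nor Kat7 from Kat6b, beyond the spread (adjusted p = 0.36 and 0.33 by the same exact permutation test). Neighbours in the run Ep300, Kat2a, Kat5, Kat8 and Kat6a did not differ from each other either (adjusted p between 0.11 and 0.70). With protein-coding transcripts alone, an order added after seeing the data, 4 pairs differed. Ep300 moved down to a place between Kat8 and Kat6a with a mean of 7.04 TPM. Hat1 stayed above Crebbp and Kat6a above Kat2b. In that order Kat7 did stand above Kat6b, in 9 of 10 libraries (exact permutation, adjusted p = 0.012), with Kat6b at a mean of 30.4 TPM. Kat8 stood above Ep300 in 8 of 10 libraries (exact permutation, adjusted p = 0.031).

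**Figure D1:**
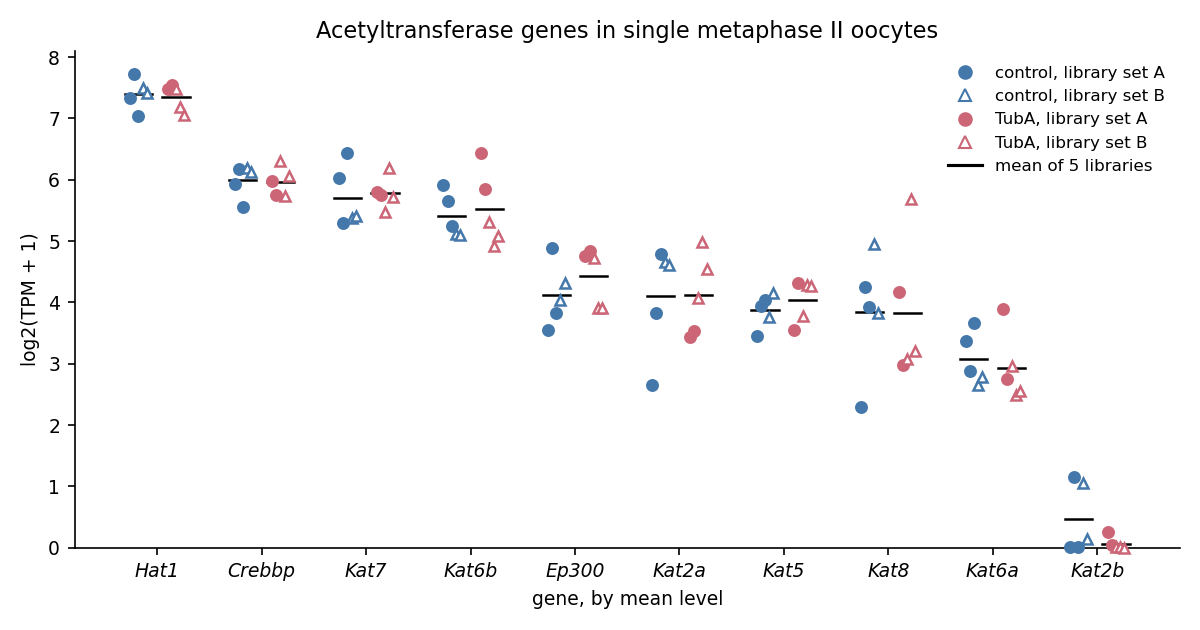
Level of each acetyltransferase gene in each oocyte library, as log2(TPM + 1) on the vertical axis, with genes ordered by mean level. Blue points are control and red points TubA, filled circles library set A and open triangles set B, and lines the mean of the 5 log2 values. The groups overlap for every gene; Hat1 is the highest gene and Kat2b the lowest.

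No acetyltransferase gene separated TubA oocytes from control oocytes. Of the 10 genes, 9 had a mean of at least 1 TPM and entered the limma test on log2(TPM + 1), and 0 passed an adjusted p of 0.05, where 0.00857% of all genes tested did. At an unadjusted p under 0.05 stood 0 of the 9, against 2.51% of all genes tested, and the lowest unadjusted p was 0.35, for Ep300 (limma). The libraries of both groups overlapped for all 10 genes, where 0.454% of genes tested had no overlap. The median difference, TubA minus control, was 0.01 log2 units over the 9 genes and 0.01 over all genes tested, with 5 of the 9 positive against 51.4% of all genes. The 95% interval lay between 2-fold lower and 2-fold higher TPM + 1 for 8 of the 9 genes, against 57.0% of all genes tested, and Kat8 was the exception. A difference short of the threshold does not show that the levels were equal: the intervals below give what the data allow.

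**Figure D2:**
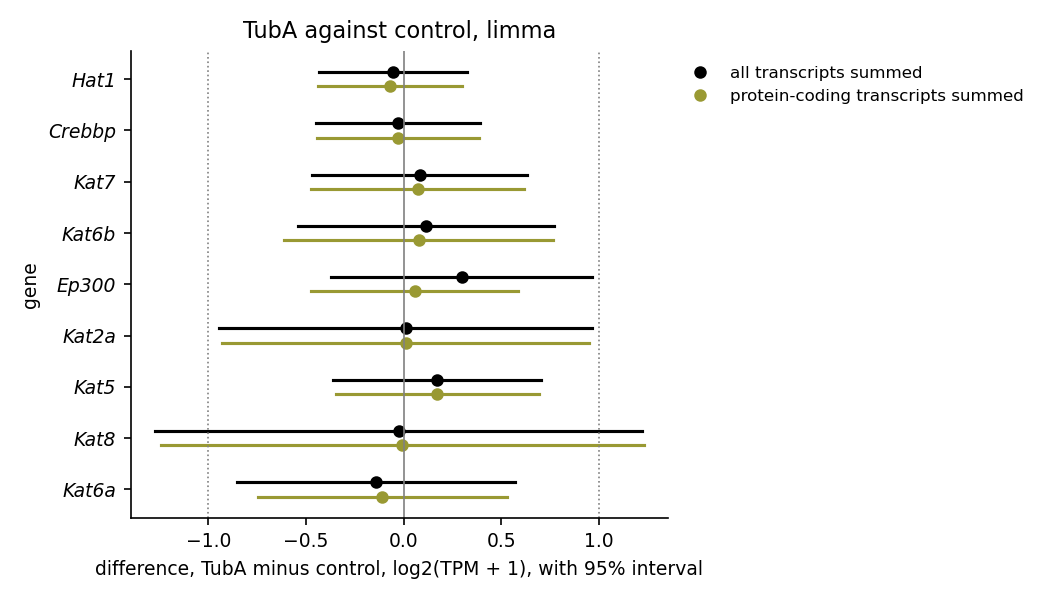
Difference between TubA and control for the 9 genes tested, in log2(TPM + 1) units, with its 95% interval from limma. Black is the sum over all transcripts and olive the sum over protein-coding transcripts; dotted lines mark a 2-fold change. Every interval crosses 0, and those of Kat8 are the widest.

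Hat1 (chr2:71388958-71441622, GRCm38 as for the genes below), the enzyme of newly made histone H4, varied least. In control, replicates 1 to 5 had 160.8, 209.3, 131.0, 178.8 and 170.2 TPM. With TubA, replicates 1 to 5 had 178.2, 186.3, 177.1, 143.9 and 131.5 TPM. The highest library was 1.597 times the lowest, and both groups covered nearly the same range. The difference was -0.05 ± 0.18 log2 units (SE), with a 95% interval from -0.43 to 0.33 (limma, unadjusted p = 0.76, adjusted p = 0.9999). Nearly all of its TPM came from 1 protein-coding transcript, Hat1-201, at 169.0 ± 28.1 and 161.1 ± 22.3 TPM. The pooled within-group SD of Hat1 was 0.23 log2 units, against a median of 0.37 over the 1330 genes with a mean within 2-fold of its own.

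The coactivator gene Crebbp (chr16:4081328-4213997) also varied little. Control libraries, in replicate order, had 59.9, 71.3, 46.3, 72.2 and 68.6 TPM. Treated libraries had 61.9, 52.9, 78.1, 52.4 and 66.1 TPM in the same order. The lowest library was a control and the highest a TubA library, within 1.69 times of each other. The difference was -0.03 ± 0.19 log2 units (SE; 95% interval -0.45 to 0.39; limma, unadjusted p = 0.89). Its summed level came in nearly even parts from Crebbp-201, the model of 10820 bases, and from Crebbp-203, a model of 3322 bases of which 99.1% lie in exons of Crebbp-201. Crebbp-201 stood at 29.6 ± 9.62 and 33.2 ± 5.13 TPM and Crebbp-203 at 31.4 ± 3.21 and 27.0 ± 9.14 TPM. Of the 31-base words (all stretches of 31 bases) of Crebbp-203 only 1.76% belong to no other Crebbp transcript, so the split between the 2 rests on few bases and a sum of both counts the shared stretch as separate molecules.

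Ep300 (chr15:81585351-81652077), the paralogue of Crebbp, stood well below it. The 5 controls, in replicate order, held 10.8, 28.7, 13.2, 15.5 and 19.0 TPM. The 5 TubA libraries held 25.9, 27.7, 25.4, 13.95 and 14.1 TPM. TubA replicates 1 to 3 lay close to the highest control, and TubA replicates 4 and 5 among the lower controls. The difference of 0.30 ± 0.31 log2 units (SE; 95% interval -0.37 to 0.97) was the largest in size of the 9 genes and did not pass (limma, unadjusted p = 0.35, adjusted p = 0.9999). It was 0.71 within set A and -0.0044 within set B. A test of its dependence on the set did not pass (limma, unadjusted p = 0.27). With protein-coding transcripts alone the difference was 0.06 (95% interval -0.47 to 0.58).

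The sum over transcripts and the coding part differ for Ep300 by short models. Ep300-207, a model of 697 bases annotated as a retained intron, made up 57.0% of the gene's mean TPM, and 96.4% of its bases lie in exons of the long coding transcript Ep300-201. Ep300-207 ranged from 2.68 to 19.9 TPM over the libraries (9.53 ± 6.60 and 12.6 ± 5.08 TPM). Ep300-201, of 9566 bases, ranged only from 5.21 to 8.66 TPM. It stood at 6.24 ± 0.899 and 6.44 ± 1.31 TPM, with a difference of 0.03 log2 units (95% interval -0.49 to 0.55; limma, unadjusted p = 0.89). The coding transcript of Ep300 was the steadier of the 2. Only 3.15% of the 31-base words of Ep300-207 belong to no other Ep300 transcript, so its share is an estimate from few bases.

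**Figure D3:**
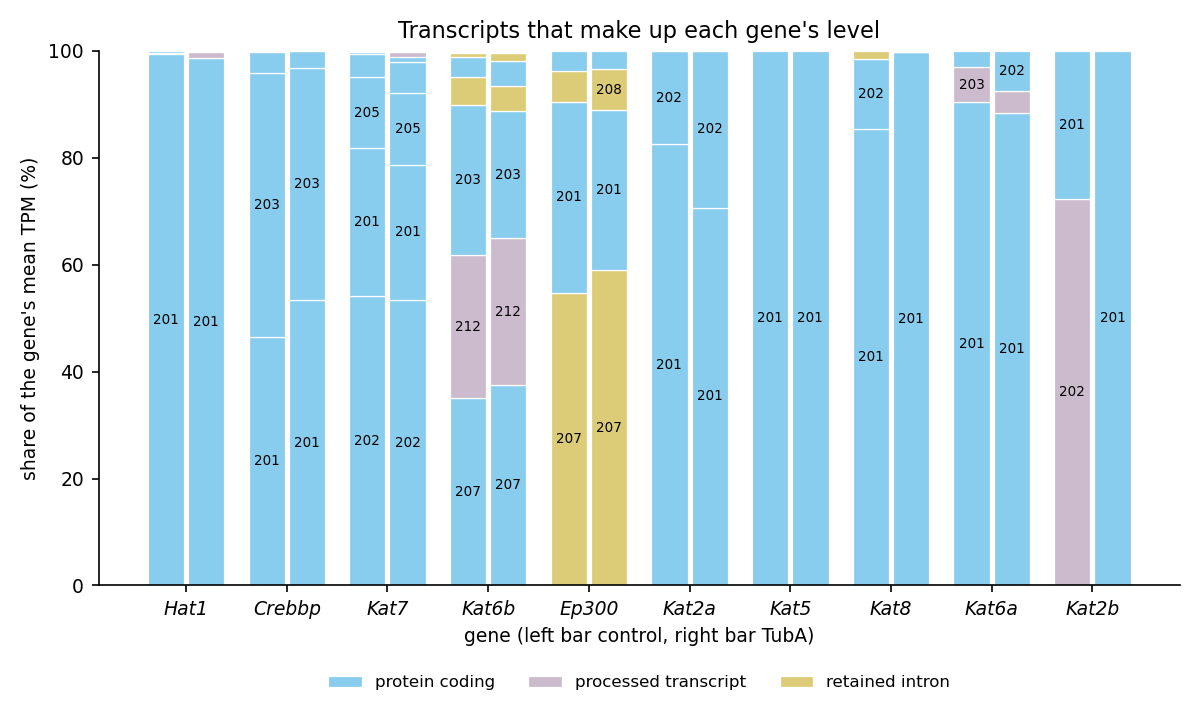
Share of each gene's mean TPM held by each of its transcripts, in percent, with control as the left bar and TubA as the right bar. Colours give the annotated transcript type and numbers the transcript (207 in the Ep300 bars is Ep300-207). Hat1 and Kat5 rest on 1 transcript, while Ep300 rests mainly on a retained-intron model and Kat6b on 3 main models.

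Among the MYST genes, Kat7 (chr11:95274259-95310246; also called HBO1, the enzyme linked to replication origins) was the most abundant. Levels in control replicates 1 to 5 were 64.4, 38.1, 85.7, 40.3 and 41.4 TPM. Levels in TubA replicates 1 to 5 were 54.4, 53.1, 43.6, 72.0 and 51.9 TPM. The TubA libraries lay inside the range of the controls. The difference was 0.08 ± 0.25 log2 units (SE; 95% interval -0.47 to 0.63; limma, unadjusted p = 0.75). It was -0.14 within set A and 0.41 within set B, and the test of whether it depended on the set did not pass (limma, adjusted p = 1.0). Both the form with the 90-base exon printed above and the form without it were present in every library. Transcripts with the exon (Kat7-202 and Kat7-205) held 67.5 ± 9.56% of the TPM of transcripts that span it (control) and 67.3 ± 7.05% (TubA), from 51.7% to 76.7% over the libraries (exact two-sided permutation p = 0.98, adjusted p = 0.98 over the 8 shares compared here). All 8 shares were chosen after the values were seen, so their p-values come from no planned test.

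Kat6b (chr14:21481434-21672478), a MYST enzyme of the MORF complex, stood next. In control, replicates 1 to 5 had 59.3, 49.5, 36.8, 33.7 and 33.1 TPM. With TubA, replicates 1 to 5 had 85.4, 56.9, 38.7, 29.3 and 32.9 TPM. Libraries of set A were the higher ones in both groups, at 36.8 to 85.4 TPM, while set B lay at 29.3 to 38.7 TPM, which is a description since the sets were found from the same values. The difference was 0.12 ± 0.30 log2 units (SE; 95% interval -0.54 to 0.77; limma, unadjusted p = 0.71), and it was 0.54 within set A and 0.0012 within set B. A test of its dependence on the set did not pass (limma, unadjusted p = 0.23). Of its transcripts, the coding model Kat6b-207 of 6791 bases held 12.8 to 21.8 TPM in every library. Kat6b-203, a coding model of 997 bases, held 8.57 to 37.3 TPM in set A libraries and 2.06 to 6.77 TPM in those of set B. The sets did not overlap in it, which is again a description. How many transcripts separate the sets was not counted. Of the bases of Kat6b-203, 100% lie in exons of Kat6b-207. Only 2.28% of the words of Kat6b-203 and 0.62% of those of Kat6b-207 belong to no other Kat6b transcript. The split between these models is therefore uncertain, and the summed level of Kat6b can count the shared stretch as separate molecules. Kat6b-212, a processed transcript of 535 bases, ranged from 7.64 to 19.9 TPM.

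Kat6a (chr8:22859535-22943259), the paralogue of Kat6b in the MOZ complex, was low. It stood at 7.74 ± 2.75 and 7.19 ± 3.83 TPM, from 4.62 to 13.9 TPM, and TubA replicate 1 was the highest library. The difference was -0.14 ± 0.33 log2 units (SE; 95% interval -0.86 to 0.57; limma, unadjusted p = 0.68). Without TubA replicate 1 it was -0.38, without control replicate 3 it was 0.0087. The coding transcript Kat6a-201 gave 89.4% of the gene's mean.

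Kat5 (chr19:5603014-5610237), the catalytic subunit of the TIP60 (NuA4) complex, was among the steady genes. It has 1 transcript in the files, at 13.8 ± 2.66 and 15.8 ± 3.85 TPM, from 9.92 to 19.0 TPM. The difference was 0.17 ± 0.24 log2 units (SE; 95% interval -0.36 to 0.70; limma, unadjusted p = 0.49). It kept its sign without any single library, between 0.07 and 0.29. Of its 31-base words 18.6% also occur in Rnaseh2c, a gene on the opposite strand with a mean of 1.36 TPM, and strand is not stated.

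Kat8 (chr7:127912516-127925837), the MYST enzyme of the MSL and NSL complexes that acetylates histone H4, varied most. Control libraries, in replicate order, had 3.90, 18.0, 14.2, 30.0 and 13.2 TPM. Treated libraries had 16.9, 6.93, 7.46, 50.5 and 8.24 TPM in the same order. The highest library, TubA replicate 4, was 12.9 times the lowest, control replicate 1. Zp1, Zp2, Zp3 and C1qb had their lowest and highest values in the same 2 libraries. So did genes of other kinds from the lists below, among them Kat14, Elp3, Dmap1, Supt3 and Ipo4. How many of all genes did so was not counted, and a link of any of them to the spread of Kat8 was not tested. The difference was -0.02 ± 0.57 log2 units (SE; 95% interval -1.27 to 1.22; limma, unadjusted p = 0.97), and the interval reaches past 2-fold in both directions. Without TubA replicate 4 it was -0.49, and without control replicate 4 it was 0.25. The within-group SD was 1.06 log2 units, above that of 91.9% of the 3229 genes of like level. Kat8 overlaps Prss8 on the opposite strand (mean 12.5 TPM), which shares 3.96% of its words. In all, 10.8% of the words of Kat8 also occur in other genes listed above 0. These are 626 genes, of which Prss8 shares the most.

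The main form of Kat8 was Kat8-201, a model of 1579 bases and 11 exons, with 93.0% of the gene's mean TPM. Kat8-202 is a shorter model of 723 bases and 5 exons, with 54.6% of its bases in exons of Kat8-201. The form with the other first exon, Kat8-202, was the 1 transcript of the acetyltransferase genes at an unadjusted p under 0.05, out of 23 tested, where 3.15% of all 21838 transcripts tested stood there. Control replicates 1 to 4 had 0.751, 3.32, 2.67 and 3.77 TPM of it, and control replicate 5 was listed at 0. TubA replicates 1 to 4 were listed at 0 and TubA replicate 5 had 0.0359 TPM. The groups therefore overlap only through control replicate 5. The difference of -1.40 ± 0.46 log2 units (SE; 95% interval -2.41 to -0.39; limma, unadjusted p = 0.011) did not pass when adjusted over all transcripts (limma adjusted p = 1.0), and 0 of the 23 transcripts did, where 0.00458% of all transcripts tested passed. Both groups overlapped for all 23, where 0.467% of transcripts tested had no overlap. The difference was positive for 16 of the 23, against 53.3% of all transcripts tested. The size follows the pseudocount: adding 0.1 in place of 1 gave -3.56, and adding 10 gave -0.26. It was -1.60 within set A and -1.11 within set B. As a share of Kat8, Kat8-202 was 13.8 ± 8.19% in control libraries and 0.0872 ± 0.195% in TubA libraries (exact two-sided permutation p = 0.048, adjusted p = 0.35 over the 8 shares). Kat8-202 was chosen for description after its values were seen. Its mean over all libraries was 1.06 TPM, just over the filter of 1 TPM. The control mean was 2.10 TPM and the TubA mean 0.00719 TPM. It thus passed the filter only through the control libraries, and its p-values are no support for a difference.

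Kat2a (chr11:100704746-100712465), which encodes GCN5, spread widely as well. The 5 controls, in replicate order, held 5.29, 13.2, 26.6, 24.2 and 23.4 TPM. The 5 TubA libraries held 9.88, 10.6, 15.9, 30.5 and 22.4 TPM. Control replicate 1 was the lowest library and TubA replicate 4 the highest, as for Kat8 and the genes named with it. The difference was 0.01 ± 0.44 log2 units (SE; 95% interval -0.94 to 0.97; limma, unadjusted p = 0.98), and -0.35 without control replicate 1. The form with the 3 extra bases printed above (Kat2a-202, and Kat2a-203 where listed) held 17.8 ± 8.45% of Kat2a in control and 28.7 ± 8.62% with TubA, from 8.67% to 39.4% over the libraries. This difference of 10.9 percentage points did not pass (exact two-sided permutation p = 0.087, adjusted p = 0.35 over the 8 shares). Like the other shares, this share was chosen after the values were seen. Kat2a-202 differs from Kat2a-201 by those 3 bases alone, and only 0.896% of the words of Kat2a-201 and 0% of those of Kat2a-202 belong to no other Kat2a transcript, so the split is uncertain.

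Kat2b (chr17:53566861-53672720), which encodes PCAF, was at most a trace. Control replicates 2 and 4 had 1.22 and 1.08 TPM, and control replicates 1, 3 and 5 had 0.0109, 0.0123 and 0.106 TPM. TubA replicates 1 to 4 had 0.197, 0.0336, 0.0107 and 0.0114 TPM, and TubA replicate 5 was listed at 0. Its mean of 0.267 TPM was under the filter of 1 TPM, so it was not tested. The 2 higher controls owed most of their value to Kat2b-202, a processed transcript of 322 bases. It was listed at 0 in control replicates 1, 3 and 5 and in every TubA library. The coding Kat2b-201 reached at most 0.408 TPM. A pseudogene, Kat2b-ps, shares 15.2% of the words of Kat2b.

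**Figure D4:**
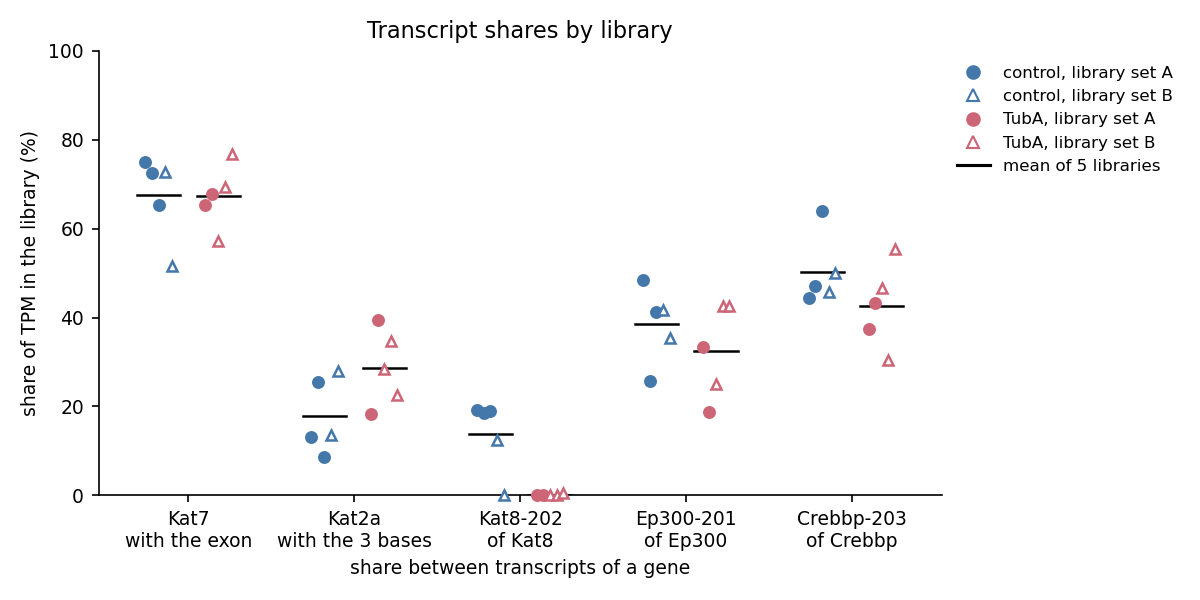
Share of TPM, in percent, held by the named transcript forms in each library, with control in blue, TubA in red, filled circles for library set A, open triangles for set B and lines for the mean of 5 libraries. Kat8-202 lies between 12.6% and 19.2% in 4 control libraries and at or near 0 in the other control library and all TubA libraries; the other forms overlap broadly between groups.

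The genes whose profile over the 10 libraries was most like a member's were taken for the 3 most abundant members, by the root mean square difference of log2(TPM + 1) after centring each gene on its mean. For Hat1 they were Sbds and Fars2 (0.12 log2 units each, against a median of 0.53 over 10480 protein-coding genes). For Crebbp they were Tpd52l2 and Cdkn1c (0.09 each, median 0.55), and for Kat7 Stom and Prickle1 (0.15 and 0.16, median 0.56). Genes that vary little lie close to each other by this measure, and all points share the same libraries.

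No tested gene passed either in lists of complex subunits and binding partners, other acetyltransferases and acetyl-CoA supply, together called partner genes here. Of 99 partner genes in 8 lists, 92 were tested; 0 passed in either direction (limma, adjusted over all genes) and 0 stood at an unadjusted p under 0.05, against 2.51% of all genes tested. The lowest unadjusted p was 0.097 (limma). The groups overlapped for all 92, where 0.454% of genes tested had no overlap. Their median difference was 0.02 log2 units, against 0.01 over all genes tested, and the 95% interval lay inside a 2-fold change for 69 of the 92. The lists of subunits and binding partners follow the enzymes, and in every list the 2 most abundant genes and the 1 of smallest p are named.

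For SAGA and ATAC, the complexes of Kat2a and Kat2b, 23 of 24 genes were tested (14 positive, 9 negative, median 0.09 log2 units). The adaptor gene Tada1 stood at 134 ± 25.2 and 143 ± 18.3 TPM and Tada3 at 104 ± 22.1 and 89.6 ± 38.6 TPM. Zzz3, of ATAC, stood at 6.45 ± 2.36 and 9.02 ± 2.05 TPM (limma, unadjusted p = 0.13). For NuA4/TIP60, the complex of Kat5, all 17 genes were tested (7 positive, 10 negative, median -0.03). Vps72, a histone chaperone shared with the SRCAP complex, stood at 886 ± 141 and 791 ± 151 TPM and Morf4l2 at 380.7 ± 85.1 and 379 ± 14.1 TPM. Morf4l1, which encodes the chromodomain protein MRG15, stood at 20.4 ± 5.06 and 14.6 ± 3.67 TPM, with a difference of -0.46 log2 units (95% interval -1.01 to 0.10; limma, unadjusted p = 0.097, adjusted p = 0.9999).

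For the scaffold and reader subunits of the MOZ, MORF and HBO1 complexes, 7 of 9 genes were tested (3 positive, 4 negative, median -0.01). Brpf3 stood at 54.3 ± 11.4 and 51.2 ± 5.58 TPM, Brd1 at 39.8 ± 6.11 and 39.4 ± 6.22 TPM and Meaf6 at 15.9 ± 3.97 and 12.9 ± 7.91 TPM (limma, unadjusted p = 0.26 for Meaf6). Jade1 and Jade3, scaffolds of HBO1, were under the filter and not tested. Jade1 was the 1 partner gene of 99 whose groups did not overlap, where 0.454% of genes tested had no overlap. Its values were 0.0593 to 0.326 TPM in controls and 0 to 0.0509 TPM with TubA, levels far below 1 TPM. The share without overlap among genes under the filter was not calculated, so no result about Jade1 is drawn. For MSL and NSL, the complexes of Kat8, all 12 genes were tested (6 positive, 6 negative, median 0.02). Wdr5 stood at 310 ± 140 and 308 ± 41.3 TPM, Phf20 at 181 ± 59.9 and 191 ± 33.5 TPM and Kansl1 at 55.0 ± 15.7 and 41.7 ± 6.58 TPM (limma, unadjusted p = 0.11 for Kansl1).

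The histone-binding partners of Hat1 were the most abundant list, and all 6 genes were tested (3 positive, 3 negative, median 0.02). Rbbp7, the subunit that binds Hat1 to histone H4, stood at 7738 ± 833 and 7607 ± 816 TPM. The chaperone gene Asf1a stood at 1665 ± 326 and 1616 ± 367 TPM and Rbbp4, the paralogue of Rbbp7, at 66.3 ± 11.5 and 56.9 ± 21.2 TPM (limma, unadjusted p = 0.31). Rbbp7 was thus far above both Hat1 and Rbbp4 in TPM.

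For the partners of p300 and CBP, 12 of 13 genes were tested (6 positive, 6 negative, median 0.05). Cited2, a CBP-binding regulator, stood at 683 ± 357 and 831 ± 294 TPM, from 129.8 to 1287 TPM. The coactivator Ncoa3 stood at 115 ± 12.6 and 109 ± 25.3 TPM, and Creb1, which encodes the factor CBP is named for, at 3.32 ± 0.934 and 2.46 ± 0.867 TPM (limma, unadjusted p = 0.26). Of 12 other acetyltransferase genes, 11 were tested (5 positive, 6 negative, median -0.02). Naa40, an amino-terminal acetyltransferase of histones, stood at 168 ± 48.6 and 160.4 ± 15.5 TPM and the cohesin acetyltransferase gene Esco2 at 165 ± 32.1 and 161.0 ± 25.1 TPM. The RNA acetyltransferase gene Nat10 stood at 11.3 ± 2.003 and 15.4 ± 5.92 TPM (limma, unadjusted p = 0.20). For the supply of acetyl-CoA, 6 of 8 genes were tested (5 positive, 1 negative, median 0.12). The pyruvate dehydrogenase gene Pdhb stood at 103 ± 29.7 and 85.5 ± 23.7 TPM, Pdha1 at 3.10 ± 0.972 and 4.54 ± 1.85 TPM (limma, unadjusted p = 0.19) and the citrate carrier gene Slc25a1 at 31.4 ± 18.2 and 39.6 ± 19.8 TPM.

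**Figure D5:**
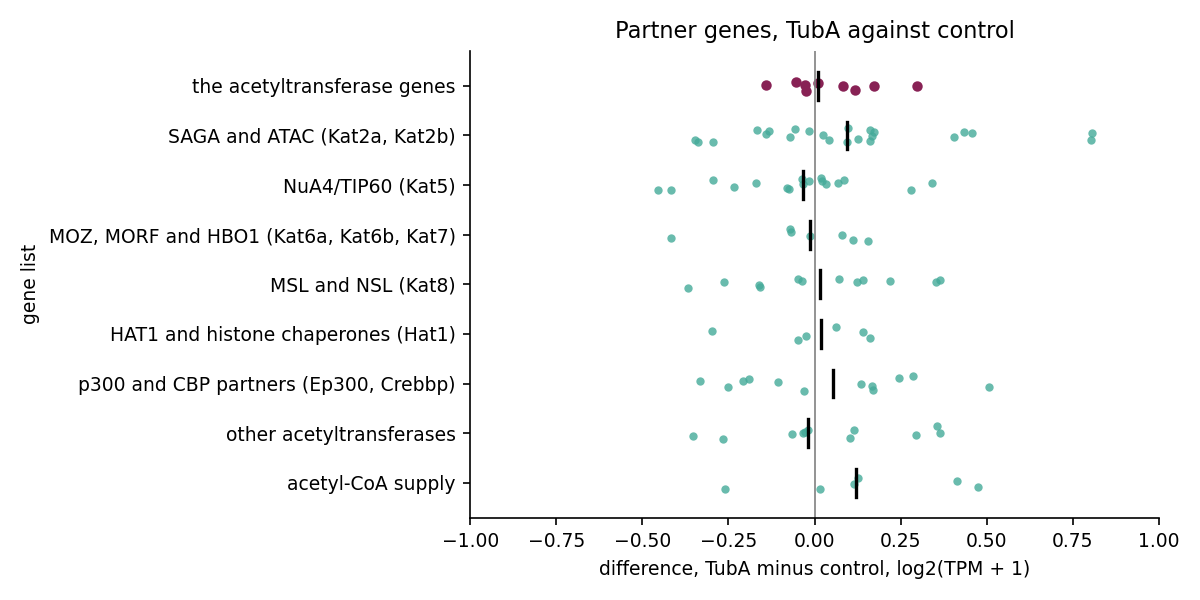
Difference between TubA and control, in log2(TPM + 1) units, for each tested gene of the 8 partner lists (green) and for the 9 acetyltransferase genes (purple), with the median of each list as a black line. List medians lie between -0.03 and 0.12, on both sides of 0.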

How the data were processed

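Single metaphase II oocytes (5 control, 5 TubA) were amplified with Smart-seq2, which copies polyadenylated RNA, per the labels' protocols. The submitters' processing notes name Bowtie 0.12.2 and build mm10. Which program computed abundances, and on which annotation, is not given in the sources used here. Deposited values are TPM per Ensembl transcript. Groups and replicate numbers came from the titles.

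Transcripts were summed to genes with GENCODE M21 (GRCm38, the assembly of mm10): 113492 matched and 1778, with 0.531% to 0.753% of each library's TPM, did not. Depth is unknown, so precision is the spread between libraries. Genes averaging 1 TPM or more (11664) were tested with limma 3.58.1 in R 4.3.3, taking log2 after adding a pseudocount of 1, with trend, robust moderation and Benjamini-Hochberg adjustment, and the test was repeated on 21838 transcripts. It was tested on simulated data. Exact permutation tests of shares used all 252 assignments, and those of neighbouring levels all sign flips over 10 libraries. The shares were chosen after the values were seen. Summing and figures used Python 3.11.15, pandas 2.3.3, numpy 2.4.6 and matplotlib 3.10.9. Shared sequence was measured in words of 31 bases, and genes of like level are those with a mean within 2-fold. The library sets came from complete-linkage clustering of correlations, cut at 2 sets. Named genes were all members, the 2 most abundant and the 1 of smallest p in each partner list, the 2 genes most like each of the 3 leading members, the leading transcript of each member, Gdf9 and Mos. The members and lists were chosen with earlier results of these data known. Alternatives were other pseudocounts, filters, scalings, library weights, the replicate number as a block, the library sets and leaving out each library.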

Additional observations from a re-analysis of the deposited data

Results flagged for a closer look

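Among 36 groups of 5 libraries checked for a library far from the others (the 10 genes and 8 transcript shares in each treatment group), 5 held one. The rule takes about 1 in 20 groups of normally distributed values by chance, a rate that does not apply to the Kat2b traces or to the share of Kat8-202, where 4 of the 5 values are 0. TubA replicate 4 had 50.5 TPM of Kat8, and the other TubA libraries had 6.93 to 16.9 TPM. TubA replicate 1 had 13.9 TPM of Kat6a, with the others at 4.62 to 6.84 TPM. TubA replicate 1 had 0.197 TPM of Kat2b, with the others at most at 0.0336 TPM, a difference between traces. TubA replicate 5 had a share of Kat8-202 of 0.436% of Kat8, with the other TubA libraries at 0. Control replicate 3 had 64.0% of its Crebbp in Crebbp-203, and the other controls had 44.5% to 50.0%.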

How the results depend on the processing

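Under every alternative run, 0 acetyltransferase genes, 0 of their transcripts and 0 partner genes passed (limma). Over all genes, 1 passed; 12 passed within set A alone, and 0 with a pseudocount of 10, a filter at 5 TPM, the replicate block, set B alone or protein-coding transcripts alone. Over all transcripts, 1 passed; 23 passed within set A alone, 0 with a pseudocount of 10, a filter at 5 TPM, the replicate block or set B alone, and 0 to 2 without single libraries. The labels name no pairing by replicate number, and the main test used none. Deviations of same-numbered libraries correlated between -0.31 and 0.48, and 2 of 5 control libraries correlated best with their own number. With 5 pairs, whether some libraries were paired cannot be told from these values. The count of neighbouring levels that differ was 3, and 3 to 4 without single libraries; sets or groups of 5 libraries are too few for that test. The sign of the difference held without any single library for Kat5 and Ep300 and changed for the other 7 genes tested. The cause of these changes was not tested.

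Differences that changed sign (log2 units) were the following. With a pseudocount of 10, Kat2a -0.019 and Kat8 0.0012. With quantile normalisation, Kat2a -0.00797 and Rbbp7 0.033. With library weights, Kat2a -0.099, Brpf3 0.040, Rbbp7 0.053, Ncoa3 0.052, Naa40 0.11, Esco2 0.081, Crebbp-201 -0.00925, Kat8-201 -0.25 and Ep300-201 -0.0445. With the set as a term, Kat2a -0.18, Rbbp7 0.00500 and Esco2 0.027. Within set A alone, Kat2a -0.26, Kat6a 0.015, Kat7 -0.14, Kat8 0.086, Hat1 0.15, Morf4l2 -0.077, Rbbp7 0.0095, Esco2 0.097, Hat1-201 0.12, Kat6a-201 0.016 and Kat7-202 -0.28. Within set B alone, Kat2a -0.099, Ep300 -0.0044, Brpf3 0.15, Phf20 -0.053, Rbbp7 0.00050, Cited2 -0.072, Naa40 0.12, Pdhb 0.13, Slc25a1 -0.026, Mos -0.13, Crebbp-201 -0.083, Kat8-201 -0.29 and Ep300-201 -0.094. With protein-coding transcripts alone, Ncoa3 0.055 and Nat10 -0.048. Without single libraries the members ranged from -0.35 to 0.18 (Kat2a), -0.38 to 0.0087 (Kat6a), -0.11 to 0.27 (Kat6b), -0.022 to 0.27 (Kat7), -0.49 to 0.25 (Kat8), -0.14 to 0.029 (Crebbp) and -0.14 to 0.025 (Hat1). Their transcripts ranged from -0.15 to 0.013 (Hat1-201), -0.52 to 0.023 (Kat2a-201), -0.16 to 0.29 (Kat7-202), -0.28 to 0.48 (Kat8-201) and -0.064 to 0.094 (Ep300-201). Partners ranged from -0.51 to 0.0018 (Tada3), -0.11 to 0.12 (Morf4l2), -0.12 to 0.047 (Brpf3), -0.10 to 0.052 (Brd1), -0.021 to 0.30 (Wdr5), -0.027 to 0.29 (Phf20), -0.074 to 0.039 (Rbbp7), -0.17 to 0.025 (Asf1a), -0.015 to 0.74 (Cited2), -0.17 to 0.053 (Ncoa3), -0.11 to 0.12 (Naa40), -0.086 to 0.082 (Esco2) and -0.0027 to 0.76 (Slc25a1). Differences in share, in percentage points, were -0.95 within set A for Kat6b-207 and 5.57 within set B for Kat7 with the exon. Without single libraries they ranged from -4.15 to 2.31 (Kat7 with the exon), -0.30 to 12.0 (Ep300-207) and -0.028 to 7.66 (Kat6b-207).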
